A study of Mus musculus with 7 samples.

Results

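Interferon-stimulated genes are the transcripts that cells switch on after interferon binds its receptor. The 33 members examined here were taken from a fixed list of gene symbols, and all 33 were found among all symbols of the annotated array table, each with 1 probe set. Of them, 30 had a mean level above the limit for dim genes (6.07 log2, an intensity of 67.3, below which the lowest 40% of symbols lay) and were tested. The other 3, Isg15, Mx2 and Eif2ak2, are given as levels only.

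The samples were Langerhans cells (LC), the dendritic cells of the epidermis, sorted by flow cytometry from adult wildtype C57:Bl6 mice and pooled to more than 10000 cells each. There were 4 control samples from naïve mice and 3 from mice pretreated with 12 Gy of ionizing radiation. By their labels all groups share strain, genotype and cell type, and the labels give no time after irradiation, no age beyond adult and no sex. The labels do not say that samples of a group came from separate animals, and a p-value here therefore reflects sample-to-sample spread that could be technical.

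Type I interferons signal through the receptor Ifnar1/Ifnar2 and the kinases Jak1 and Tyk2 to a complex that holds Stat2 and Irf9 and binds the interferon-stimulated response element (ISRE) in target promoters. Interferon-gamma acts at another element, the GAS, and several targets answer to both. The products include RNA sensors, transcription factors that amplify the response, and proteins that block viral RNA, translation, entry or release. LC sit at a barrier exposed to microbes and carry this program at a basal level that interferon raises.

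One library stood apart. Over the 13053 genes tested, Pearson correlations were 0.858 or higher among 6 arrays, and between 0.650 and 0.728 for the library labelled irradiated replicate 1. The markers of LC went against its label. All 12 of 12 LC markers lay below every control in it, with Cd207 (langerin) at 5.64 against 8.85 to 11.49 in the controls, the MHC class II gene H2-Aa at 6.52 against 12.98 to 13.10 and the leukocyte gene Ptprc at 5.61 against 9.21 to 10.41. The collagen gene Col1a1 was at 10.61 in it against 8.0 to 8.48, and Krt10, a keratinocyte gene, was at 12.43, above all 4 controls. Of 12 keratinocyte markers, 10 lay above every control in it and 1, Krt1 at 8.41, below. All 8 fibroblast and all 5 erythroid markers lay above. The erythroid markers summed to an intensity of 20918 in it against 480 to 1121 in the controls. The other 2 irradiated samples had Cd207 at 12.35 and 11.86. Results are therefore given with and without that library. Xist, the X-inactivation RNA, was at 10.94 to 11.71 in the controls and 5.31 to 5.93 in the irradiated samples, a gene chosen after its values were seen, so sex and irradiation cannot be told apart. Cdkn1a, the p21 gene of the series title, was at 11.24 to 11.47 in the controls and 11.97, 12.50 and 12.64 in the irradiated samples.

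The promoters of the members show how widely the response element is shared. RefSeq promoters (GRCm38.p6, 250 bases before to 50 after the annotated start) were at hand for 25 of the 33 genes. The ISRE core was searched as GAAA, any 2 bases and GAAA again, and the GAS as TTC, any 3 bases and GAA, on both strands. The ISRE core was in at least 1 promoter of 16 of these 25 genes (64.0%), against 3.99% of the 27025 genes and 3.44% of the 32851 promoters in the table. Matches that share bases were counted separately, and 9 of the genes held 2 or more. The GAS was in 6 of 25 (24.0%), against 9.55% of genes and 8.3% of promoters, and 2 ISRE matches overlapped a GAS match. The promoters below are shown for genes whose levels the results below turn on. Those of Ifit1 (chr19:34640639-34640938, plus strand), Rsad2 (chr12:26456403-26456702, minus strand), Ifih1 (chr2:62646206-62646505, minus strand), Gbp2 (chr3:142620413-142620712, plus strand) and Isg15 (chr4:156200769-156201068, minus strand) hold the core, and those of Irf7 (chr7:141266375-141266674, minus strand) and Ifi44 (chr3:151749861-151750160, minus strand) do not hold these letters in this window. Each runs 5′ to 3′ along the gene, in lower case, with ISRE matches of either strand in capitals.
Ifit1: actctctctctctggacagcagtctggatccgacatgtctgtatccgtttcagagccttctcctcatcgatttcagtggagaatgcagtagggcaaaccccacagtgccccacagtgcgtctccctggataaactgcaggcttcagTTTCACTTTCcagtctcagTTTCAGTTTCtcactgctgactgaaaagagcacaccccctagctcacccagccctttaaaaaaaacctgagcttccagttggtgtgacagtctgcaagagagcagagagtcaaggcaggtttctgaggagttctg
Rsad2: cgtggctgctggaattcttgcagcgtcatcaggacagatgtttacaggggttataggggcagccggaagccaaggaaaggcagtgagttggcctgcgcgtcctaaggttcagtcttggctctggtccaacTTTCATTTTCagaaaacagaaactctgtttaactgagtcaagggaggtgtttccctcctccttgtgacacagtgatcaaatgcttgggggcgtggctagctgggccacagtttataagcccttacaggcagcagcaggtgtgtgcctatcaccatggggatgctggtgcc
Ifih1: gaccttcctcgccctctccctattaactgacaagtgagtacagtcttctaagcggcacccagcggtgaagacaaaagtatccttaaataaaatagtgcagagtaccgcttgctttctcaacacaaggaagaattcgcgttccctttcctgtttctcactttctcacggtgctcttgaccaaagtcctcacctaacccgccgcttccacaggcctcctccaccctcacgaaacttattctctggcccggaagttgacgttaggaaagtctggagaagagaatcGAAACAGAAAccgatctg
Gbp2: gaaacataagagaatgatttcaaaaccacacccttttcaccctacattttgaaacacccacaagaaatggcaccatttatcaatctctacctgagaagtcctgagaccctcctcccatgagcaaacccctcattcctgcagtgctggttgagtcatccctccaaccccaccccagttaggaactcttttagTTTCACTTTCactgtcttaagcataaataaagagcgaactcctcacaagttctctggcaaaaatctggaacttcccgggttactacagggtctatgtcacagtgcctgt
Isg15: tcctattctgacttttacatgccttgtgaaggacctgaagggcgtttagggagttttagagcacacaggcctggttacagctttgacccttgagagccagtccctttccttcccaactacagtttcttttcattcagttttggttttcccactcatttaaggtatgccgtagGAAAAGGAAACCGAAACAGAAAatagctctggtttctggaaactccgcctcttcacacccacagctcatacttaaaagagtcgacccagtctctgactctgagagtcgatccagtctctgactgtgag
Irf7: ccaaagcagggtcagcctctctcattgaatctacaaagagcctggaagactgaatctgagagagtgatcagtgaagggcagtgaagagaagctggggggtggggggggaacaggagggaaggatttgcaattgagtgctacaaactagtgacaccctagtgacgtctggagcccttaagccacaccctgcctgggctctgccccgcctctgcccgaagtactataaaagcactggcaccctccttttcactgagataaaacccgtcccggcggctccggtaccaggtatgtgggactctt
Ifi44: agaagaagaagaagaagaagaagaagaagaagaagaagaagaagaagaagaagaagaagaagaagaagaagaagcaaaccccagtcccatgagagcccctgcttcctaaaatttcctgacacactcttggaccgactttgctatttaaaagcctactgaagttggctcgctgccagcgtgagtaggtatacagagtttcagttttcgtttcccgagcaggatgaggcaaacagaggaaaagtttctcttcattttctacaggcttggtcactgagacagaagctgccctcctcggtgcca
In Ifit1 the matches began 104 and 85 bases before the annotated start, in Rsad2 120, in Gbp2 59 and in Isg15 78, 72 and 66 bases before it, while the match in Ifih1 began 32 bases after it. A match is a description of the letters, not of binding.

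The first feature of these genes was their spread among the 4 controls, which are samples of 1 label. Control 1 had the lowest level of the 4, alone or tied, in 32 of 33 members, Bst2 being the exception. The tie was in Isg15, where controls 1, 2 and 4 all read 5.94. Control 1 was lowest in 29 of the 30 tested members. Over all genes tested, control 1 was lowest in 39.8%. Control 3 was the highest in 25 of 30 members, against 23.0% of all genes. The full order of control 1, then 2, then 4, then 3 was found in 21 of 30 members and in 11.6% of all genes. The median level of the 33 members was 6.65 log2 in control 1, 7.54 in control 2, 8.54 in control 3 and 8.35 in control 4, while the median of all symbols stayed between 6.31 and 6.43. In the irradiated samples the members' median was 6.60, 7.43 and 7.21 for replicates 1, 2 and 3. The controls thus spanned a wider interval than the difference between the groups.

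**Figure D1:**
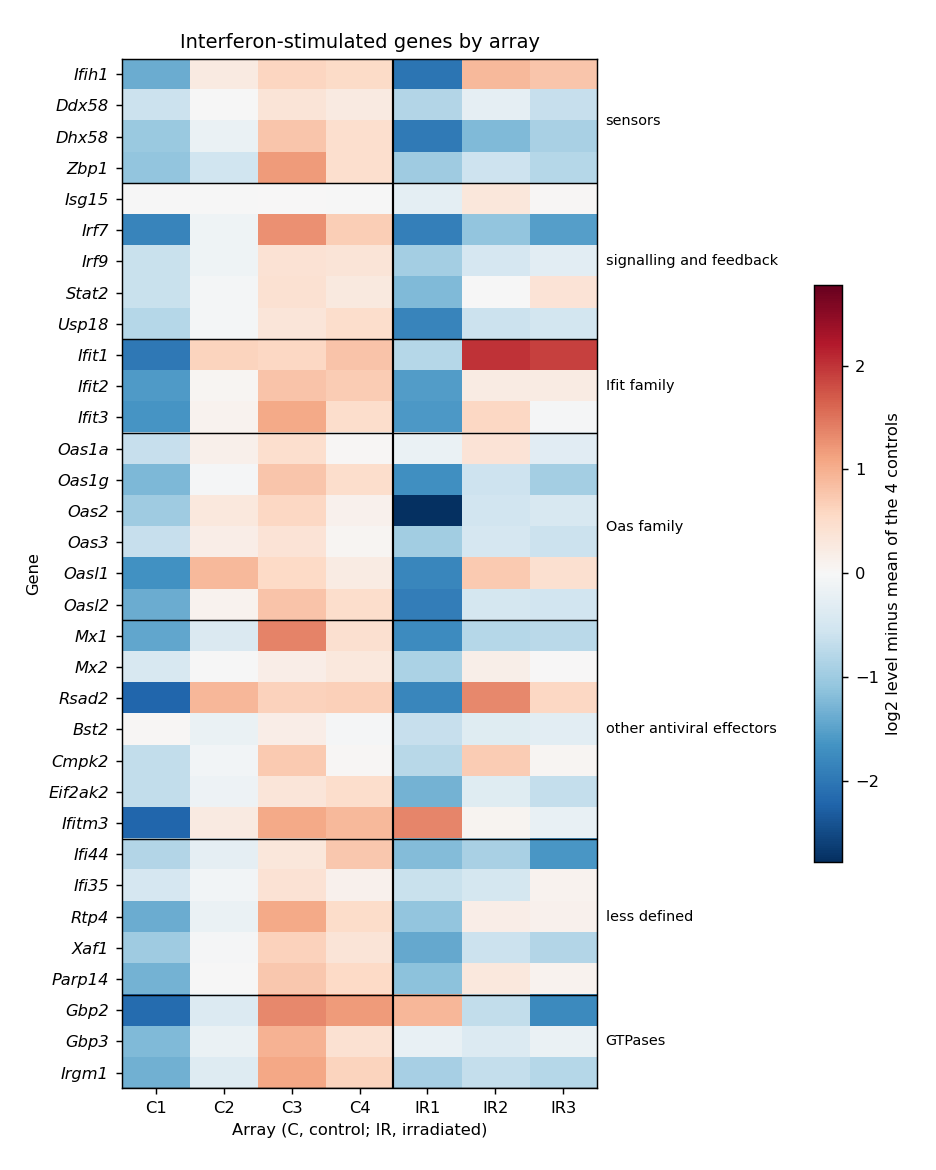
Log2 level of each of the 33 genes (rows, grouped by role) in each array (columns), as the difference from the mean of the 4 controls; blue is lower and red is higher. Control 1 is blue in nearly every row, controls 3 and 4 are mostly red, and Ifit1 is the reddest row of irradiated replicates 2 and 3.

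The distance between the lowest and the highest control had a median of 2.04 log2 over the 30 tested members, against 0.46 over all genes tested. It was over 2 log2 in 16 of 30 members, against 2.54% of all genes. In 21 of 30 it lay in the upper 5% of all genes. A single control far from the other 3, by Dixon's ratio, was seen in 2 of the 30 members, Ifit1 and Rsad2, and in 8.37% of all genes. Without control 1 the median distance was 0.72 for the members and 0.27 for all genes. Irradiated replicates 2 and 3 differed from each other by a median of 0.21 in the members and 0.20 over all genes.

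The gene of widest control spread was Gbp2, a guanylate-binding GTPase of the interferon-gamma response that acts on intracellular pathogens. Its levels in controls 1 to 4 were 5.43, 7.19, 8.92 and 8.76 log2, an 11.2-fold distance. In irradiated replicates 1 to 3 they were 8.50, 6.88 and 5.80, so the groups overlapped. Ifitm3, a membrane protein that blocks viral entry and the member of highest signal among the effectors, came next. It read 8.31, 10.74, 11.56 and 11.40 in the controls (10.50 ± 1.51, SD, n = 4) and 11.87, 10.59 and 10.31 in the irradiated samples (10.92 ± 0.83, SD, n = 3). Of the 30 tested members, Ifitm3 was the 1 above all controls in the library labelled irradiated replicate 1 and 18 lay below all of them, where 27.6% of all genes were above and 40.4% below.

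Rsad2, Irf7 and Mx1 had control distances near 3 log2. Rsad2 encodes viperin, which makes a chain-terminating nucleotide against viral RNA synthesis, and was at 6.96 in control 1 and at 10.08, 9.79 and 9.82 in controls 2 to 4. In the irradiated samples it was at 7.36, 10.50 and 9.73, so that a single control and a single irradiated sample were low. Irf7, the transcription factor that amplifies interferon production, was instead graded, at 6.65, 8.38, 9.76 and 9.18. Its irradiated levels of 6.60, 7.4 and 6.97 lay below controls 2 to 4 but around control 1. Mx1, an antiviral GTPase gene, read 5.72, 6.76, 8.54 and 7.61 in the controls and 5.41, 6.36 and 6.40 in the irradiated samples. Here too the irradiated samples lay below controls 2 to 4, while replicates 2 and 3 were above control 1.

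**Figure D2:**
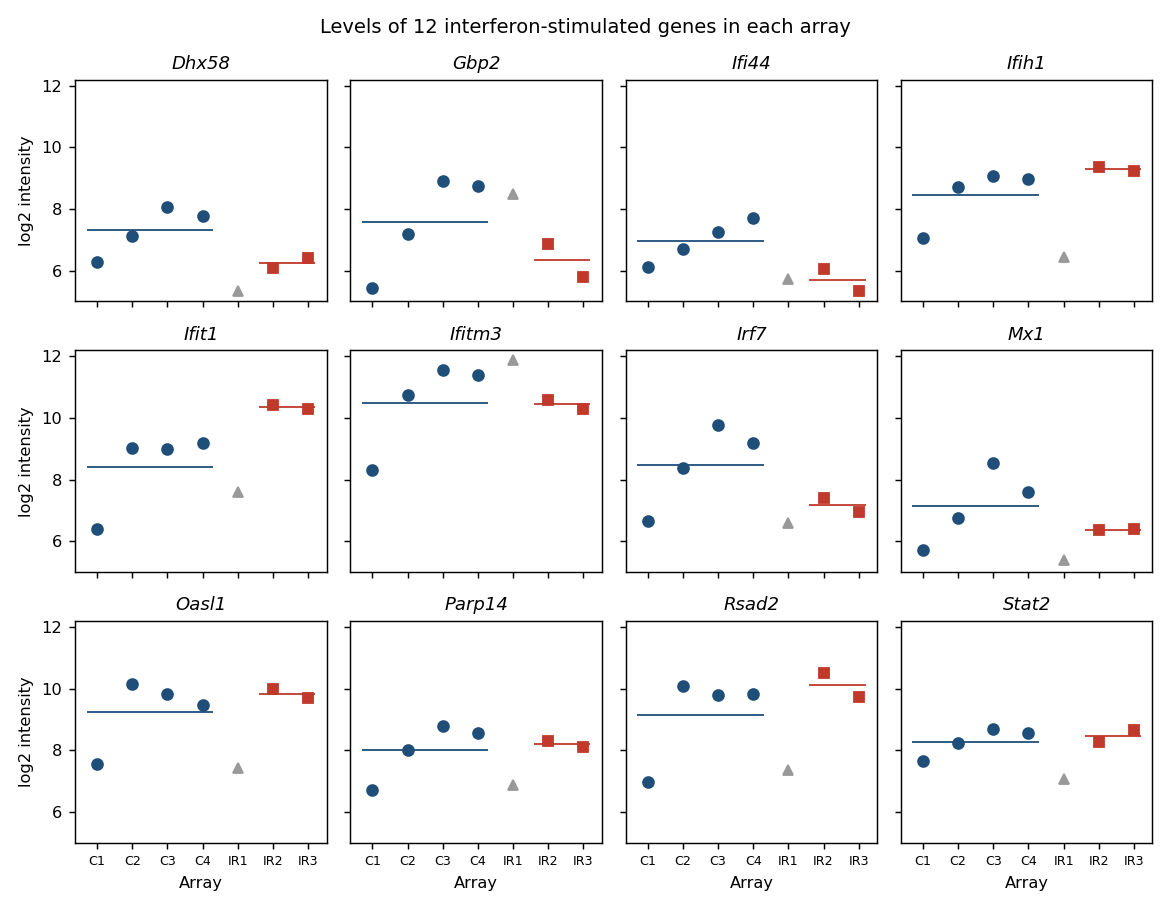
Log2 intensity (vertical axis) of 12 genes in each array; blue circles are controls 1 to 4, the grey triangle is the library labelled irradiated replicate 1, red squares are irradiated replicates 2 and 3, and lines are the means of the controls and of the red squares. Ifit1 and Ifih1 have both red squares above all blue circles and Ifi44 has both below them.

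The only label that differs among the controls is an earlier record, which controls 1 and 4 cite and controls 2 and 3 do not. Controls 1 and 4 were at 6.65 and 9.18 for Irf7, and at 6.42 and 9.19 for Ifit1. Controls 2 and 3 were at 8.38 and 9.76 for Irf7, and at 9.03 and 8.98 for Ifit1. Controls that cite a record were set against the other 2 in limma over 6 arrays, without the library labelled irradiated replicate 1. Of the 30 members, 0 were past an adjusted p of 0.05 (lowest adjusted p = 1). Over all genes 0.0% passed, and at an unadjusted p under 0.05 there were 1 member and 52 of 13053 genes. Each side held only 2 controls, so 0 calls do not show that the sides were alike. The median difference, record minus no record, was -0.74 log2 for the members and -0.0028 for all genes. The difference was below 0 in 29 of 30 members and in 50.6% of all genes. The signs of 9 of the 12 genes shown turned when control 1 was left out.

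The markers of monocytes and macrophages moved with this order. All 12 of 12 were lowest in control 1 among the controls, and 11 of 12 were highest in control 3. The summed intensity of the 12 was 5692 in control 1, 16531 in control 2, 29607 in control 3 and 24217 in control 4, and 4146, 14044 and 15571 in the irradiated samples. All 12 lay above the limit for dim genes. Lyz2, the lysozyme gene of this list, read 8.41, 11.65, 12.79 and 12.29 in the controls and 8.70, 11.93 and 12.06 in the irradiated samples. The part of these markers in the spread of the members was not tested, and in such pooled samples fewer cells of a type and less RNA per cell cannot be told apart. Keratinocyte and fibroblast markers ran in another order. In controls 1 to 4 the 12 keratinocyte markers summed to 3465, 7515, 2865 and 12406 and the 8 fibroblast markers to 1732, 6323, 2422 and 7669, with control 3 highest in 0 of either list. The 12 LC markers were mixed: control 1 was lowest in 4 and control 3 highest in 4. Cd207 was at 11.49, 10.96, 8.85 and 8.91 and Ptprc at 9.21, 9.66, 10.41 and 10.18. Epcam, Ly75 and Mfge8 were, as Cd207, lower in controls 3 and 4 than in controls 1 and 2, and H2-Eb1 only slightly so. Mfge8 read 12.78, 13.01, 11.33 and 11.65, and Ly75 8.34, 8.63, 7.35 and 7.72. Siglech, which defines plasmacytoid dendritic cells, read 6.3 to 6.43 in the controls and 6.32 to 6.64 in the irradiated samples, and the 8 markers of that cell, which include the members Bst2 and Irf7, summed to 1068 to 2264 and 1295 to 3402.

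**Figure D3:**
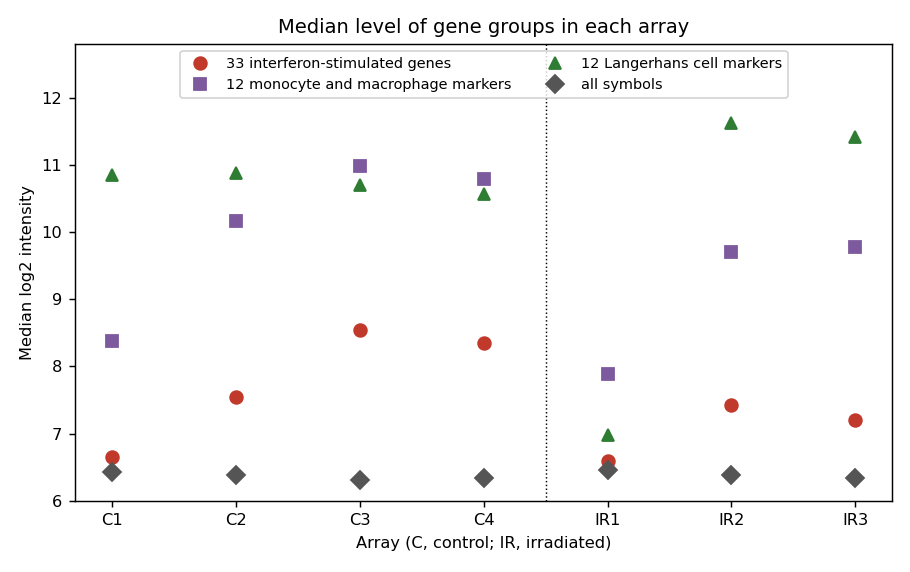
Median log2 intensity (vertical axis) in each array of the 33 interferon-stimulated genes, 12 monocyte and macrophage markers, 12 Langerhans cell markers and all symbols. The medians of the first 2 groups are lowest in control 1 among the controls and highest in control 3, those of the Langerhans cell markers stay between 10.57 and 10.88 in the controls and are 6.98 in irradiated replicate 1, and the median of all symbols is nearly level.

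The second question was whether irradiated LC differed from controls in these genes. With all 7 arrays 0 of 30 members passed (limma, adjusted p from 0.127 to 0.995), where 1.68% of all genes were called, 0.115% higher and 1.56% lower. At an unadjusted p under 0.05 there were 6 members of 30, against 19.7% of all genes. The log2 fold change, irradiated minus control, was below 0 in 27 of 30 members with a median of -0.46, against 55.0% and -0.05 over all genes. Without the library labelled irradiated replicate 1, again 0 of 30 passed (adjusted p from 0.144 to 0.984), where 4.63% of all genes were called, 1.58% higher and 3.06% lower. Quantile normalisation moved that split from 206 higher and 399 lower to 310 and 351. Without quantile normalisation, and still without that library, 2 of 30 had an unadjusted p under 0.05, against 21.7% of all genes. In the same fit, 19 of 30 were below 0 with a median of -0.34, against 56.4% and -0.05 over all genes. Both counts of members were near or below the background of their comparison.

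The outcome depended on control 1. With neither it nor the library labelled irradiated replicate 1, 1 member was higher and 9 were lower in irradiated LC, where 2.79% of all genes were higher and 8.28% lower. The higher one was Ifit1, and the lower ones were Irf7, Dhx58, Ifi44, Xaf1, Oas3, Oas1g, Oas2, Usp18 and Oasl2. That count rests on 3 controls and 2 irradiated samples, and leaving out any other single control gave 0. Control 1 was singled out after its values were seen. The count and every adjusted p given below without control 1 are therefore descriptions only. Array weights, which give each array a weight fitted from its residuals, called 6 of 30 members lower with all 7 arrays, where 20.3% of all genes were called lower, so that this count is at the background.

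Among the RNA sensors, Ifih1 and Dhx58 stood on opposite sides. Ifih1, the gene of the double-stranded RNA sensor MDA5, was at 7.08, 8.72, 9.06 and 8.99 in the controls and at 6.44, 9.37 and 9.23 in the irradiated samples. Irradiated replicates 2 and 3 were above all 4 controls, and the log2 fold change without replicate 1 was 0.84 (SE 0.55, adjusted p = 0.438). Dhx58, the gene of LGP2, which modulates signalling by the other RNA sensors, was at 6.28, 7.12, 8.08 and 7.78 in the controls and 5.35, 6.09 and 6.40 in the irradiated samples. Its values overlapped only through control 1. Its log2 fold change was -1.36 with all arrays (SE 0.44, adjusted p = 0.157) and -1.07 without replicate 1 (SE 0.46, adjusted p = 0.240). Also without control 1, singled out after its values were seen, it was -1.41 (SE 0.29, adjusted p = 0.0339). Ddx58, the gene of RIG-I, and Zbp1, a sensor of Z-form nucleic acid linked to necroptosis, had log2 fold changes of -0.44 and -0.68 without replicate 1 and did not pass. In both, irradiated replicates 2 and 3 were below controls 2 to 4, where 30.7% of all genes were. For Zbp1 the gap was small, with irradiated replicate 2 at 7.38 and control 2 at 7.41.

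Of the signalling genes, Irf7 was the member with the lowest log2 fold change, -1.50 with all arrays (SE 0.67, adjusted p = 0.266). It was -1.31 without replicate 1 (SE 0.77, adjusted p = 0.393). Also without control 1, singled out after its values were seen, it was -1.92 (SE 0.40, adjusted p = 0.0356). Stat2, a subunit of the complex that binds the ISRE, had the highest signal in this group. Its controls read 7.66, 8.23, 8.71 and 8.55 and its irradiated samples 7.07, 8.27 and 8.67. Replicate 1 was below all 4 controls and replicates 2 and 3 lay within their range, with a log2 fold change of 0.18 without replicate 1 (SE 0.31, adjusted p = 0.809). Irf9, its DNA-binding partner, and Usp18, a protease that removes Isg15 from proteins and damps receptor signalling, had log2 fold changes of -0.38 and -0.55 without replicate 1. Isg15, the ubiquitin-like modifier itself, read 5.94, 5.94, 5.97 and 5.94 in the controls and 5.68, 6.26 and 5.99 in the irradiated samples. Its probe set was below the limit for dim genes and its controls lay within 0.024 log2 of each other. The promoter shown above holds 3 ISRE matches that share bases in a continuous run, where no other member with an entry holds more than 2.

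The Ifit genes encode proteins that bind foreign RNA and hinder its translation. Ifit1 was at 6.42, 9.03, 8.98 and 9.19 in the controls (8.41 ± 1.33, SD, n = 4) and at 7.61, 10.41 and 10.30 in the irradiated samples (9.44 ± 1.58, SD, n = 3). Replicates 2 and 3 were above every control, and replicate 1 lay between control 1 and the rest. The log2 fold change was 1.04 with all arrays (SE 0.89, adjusted p = 0.536) and 1.95 without replicate 1 (SE 0.76, adjusted p = 0.194). Also without control 1, singled out after its values were seen, it was 1.29 (SE 0.16, adjusted p = 0.0117). Ifit2 and Ifit3 did not pass in any of these comparisons. Their log2 fold changes without replicate 1 were 0.23 and 0.27, and -0.29 and -0.27 also without control 1, with irradiated replicates 2 and 3 overlapping controls 2 to 4.

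The Oas genes encode enzymes, or relatives of them, that activate the antiviral RNase L. Oasl1, a member without that activity that restrains Irf7 translation in mice, had the highest signal. It was at 7.57, 10.16, 9.82 and 9.48 in the controls and at 7.44, 9.98 and 9.70 in the irradiated samples. These overlapped, with a log2 fold change of 0.58 without replicate 1 (SE 0.67, adjusted p = 0.700). Oas1g, Oas2, Oas3 and Oasl2 had log2 fold changes of -0.49 to -0.76 without replicate 1, none past the threshold. In all 4 of them irradiated replicates 2 and 3 were below controls 2 to 4, where 30.7% of all genes were. Control 1 was left out there after its values were seen. In Oas1a, with a log2 fold change of 0.03, and in Oasl1 these replicates overlapped controls 2 to 4. Oas1a and Oas1g are close paralogs, and probe sets of such genes can pick up each other's transcripts, so each value is uncertain.

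Among the other antiviral effectors, Rsad2 had a log2 fold change of 0.03 with all arrays (SE 0.96, adjusted p = 0.987) and 0.95 without replicate 1 (SE 0.85, adjusted p = 0.599). It was 0.22 also without control 1 (adjusted p = 0.590). Cmpk2, a nucleotide kinase gene that lies beside Rsad2 in the mouse genome, had 0.38 without replicate 1. Mx1 had -1.10 with all arrays (SE 0.62, adjusted p = 0.365) and -0.78 without replicate 1 (SE 0.68, adjusted p = 0.588). Ifitm3 had 0.42 with all arrays (SE 0.80, adjusted p = 0.787) and -0.06 without replicate 1, so that its sign rested on that library. Bst2, the gene of tetherin, which holds budding virions at the cell surface, was the member of least control spread after Isg15. It read 7.76, 7.54, 7.92 and 7.70 in the controls and 7.09, 7.4 and 7.45 in the irradiated samples, all 3 of which were lower, and a mean difference of -0.41 log2 (SE 0.16, adjusted p = 0.218). Mx2 and Eif2ak2, the gene of the kinase PKR, stayed dim at 5.21 to 5.95 and 5.37 to 6.55 in the controls and 4.79 to 5.82 and 4.75 to 5.72 in the irradiated samples.

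Ifi44, a cytoplasmic protein gene of less defined role, had the lowest adjusted p of the members in both comparisons. It was at 6.13, 6.71, 7.27 and 7.70 in the controls (6.96 ± 0.68, SD, n = 4) and at 5.75, 6.05 and 5.33 in the irradiated samples (5.71 ± 0.36, SD, n = 3). All 3 irradiated samples were below all 4 controls, as in Bst2 and in no other of the 30, where 15.3% of all genes showed this. The reverse, all irradiated samples above all controls, was seen in 0 of 30 members and 3.46% of all genes. The log2 fold change was -1.24 with all arrays (SE 0.36, adjusted p = 0.127) and -1.26 without replicate 1 (SE 0.43, adjusted p = 0.144). The irradiated mean lay below the limit for dim genes, so the size of the difference is uncertain. Parp14, an ADP-ribosyltransferase gene and the brightest of this group, was at 6.71, 8.01, 8.78 and 8.58 in the controls and 6.88, 8.30 and 8.12 in the irradiated samples. Its log2 fold change was -0.25 with all arrays and 0.19 without replicate 1 (SE 0.54, adjusted p = 0.892). Ifi35, Rtp4 and Xaf1, a cofactor of apoptosis, had -0.19, 0.16 and -0.70 without replicate 1.

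The GTPase genes Gbp2, Gbp3 and Irgm1, an immunity-related GTPase of autophagy, had log2 fold changes of -1.23 (SE 0.95, adjusted p = 0.525), -0.29 and -0.73 without replicate 1, none past the threshold. With that library the value for Gbp2 was -0.51. In these 3 genes control 3 was the highest control and control 1 the lowest. Over all 30 tested members, irradiated replicates 2 and 3 were above controls 1 to 4 in 2 and below them in 2, where 10.2% and 20.3% of all genes were. Set against controls 2 to 4 only, a setting looked at after the values were seen, they were above in 2 members and below in 17, where 17.3% and 30.7% of all genes were. Since control 1 was left out after its values were seen, this count is a description.

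**Figure D4:**
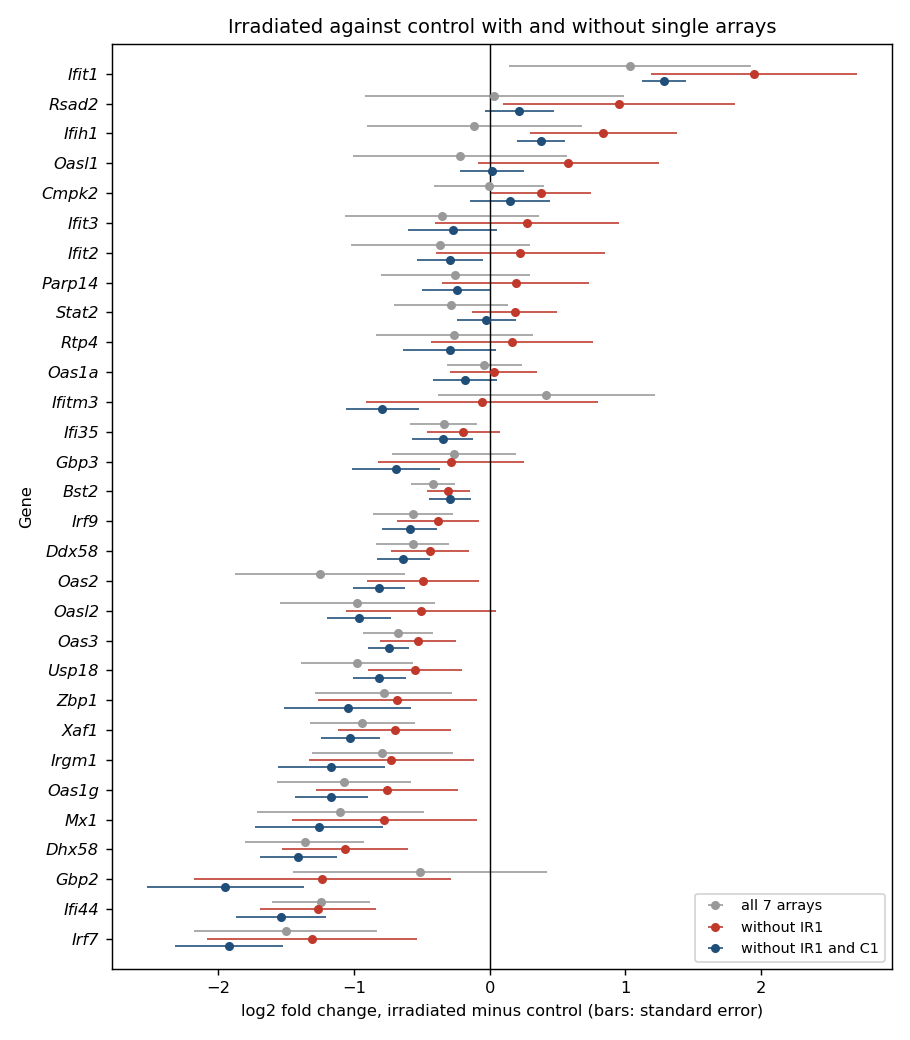
Log2 fold change, irradiated minus control (horizontal axis), of the 30 tested genes with standard errors as bars, for all 7 arrays (grey), without irradiated replicate 1 (red) and also without control 1 (blue). The bars shorten from red to blue in most genes, Ifit1 is the highest at 1.95 in red and 1.29 in blue, and Irf7 is the lowest in red at -1.31.

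The genes upstream of the members were on the arrays as well. Of 19 interferon ligand genes 10 were above the limit for dim genes and 0 passed in either comparison. The brightest probe set was that of Il28a (now Ifnl2), at 7.57 to 8.03 in the controls and 7.84 to 8.34 in the irradiated samples. Ifnb1, the gene of interferon beta, chosen after its values were seen, was at 5.68, 7.03, 7.19 and 7.37 in the controls and at 6.12, 7.55 and 8.92 in the irradiated samples. Again control 1 was the lowest control, and irradiated replicates 2 and 3 were above all 4 (log2 fold change 1.42 without replicate 1, adjusted p = 0.188). Of 9 receptor and kinase genes 0 passed, and all 9 were lowest in control 1 among the controls. Ifngr2, the brightest, read 9.70 to 10.42 in the controls and 8.34, 10.28 and 10.51 in the irradiated samples.

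Of 9 genes of other STATs and IRFs 0 passed with all arrays. Without replicate 1, Irf4, a factor of dendritic cell and lymphocyte differentiation, rose by 2.01 (SE 0.35, adjusted p = 0.0286). It was at 8.52, 7.65, 8.62 and 7.59 in the controls and at 10.19 and 10.02 in irradiated replicates 2 and 3, both above every control, while the library left out read 5.20.

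Of 11 tested sensing adaptor and kinase genes 0 passed. The brightest, Myd88 of Toll-like receptor signalling, was at 8.80 to 9.25 in the controls and 9.46, 8.25 and 8.18 in the irradiated samples. Of 8 inhibitor genes 0 passed with all arrays, and without replicate 1 the phosphatase gene Ptpn6 fell by 0.90 (SE 0.18, adjusted p = 0.0419). Of 36 tested genes of a second list of interferon-induced genes, 2 fell with all arrays, where 1.56% of all genes were called lower. Psmb8, an immunoproteasome subunit, fell by 1.43 (SE 0.18, adjusted p = 0.0154), and Apobec3, a cytidine deaminase that restricts retroviruses, fell by 1.61 (SE 0.28, adjusted p = 0.0368).

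Without replicate 1, 4 genes of that list fell, where 3.06% of all genes were called lower. These were the same 2 genes, Cxcl9 and Sp100. Cxcl9, a T cell chemokine typical of interferon-gamma, was at 7.69, 9.50, 10.56 and 10.47 in the controls and 7.64, 5.86 and 5.77 in the irradiated samples, and fell by 3.74 (SE 0.76, adjusted p = 0.0427). Sp100, a nuclear body protein, fell by 1.29 (SE 0.24, adjusted p = 0.0338). In Cxcl9 the control order was that of the members, with control 1 lowest and control 3 highest. Control 1 was lowest among the controls, alone or tied, in 32 of the 38 genes of this list on the array. The tie was with control 2 in Isg20. The irradiated mean of Psmb8, 6.26, lay just above the limit for dim genes, and irradiated replicates 2 and 3 of Cxcl9 lay below it. The list had a median log2 fold change of -0.74 with all arrays and -0.58 without replicate 1.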

How the data were processed

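Total RNA of sorted mouse Langerhans cells was measured on 7 arrays. The deposited values are intensities on a linear scale, 1 per probe set and array, made by the authors with RMA, per the submitters' processing notes. The sources used here do not give the array design, the genome build or the set of arrays that entered RMA jointly. The annotated and the plain deposited table were identical (174454 of 174454 values equal within 1e-09). No depth applies, and the number of arrays limits precision.

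Here intensities were put on the log2 scale, each symbol was represented by its probe set of highest mean, and the lowest 40% of symbols were left out, leaving 13053 genes. A linear model per gene was fitted with limma 3.58.1 (lmFit, then eBayes with a mean-variance trend) under R 4.3.3, and p-values were adjusted by Benjamini-Hochberg over all 13053 genes, with a threshold of 0.05. The code was tested on simulated data. The comparisons were irradiated against control with all 7 arrays, irradiated against control on 6 arrays (irradiated replicate 1 left out), and controls citing an earlier record against the others. The members and gene lists were chosen with earlier results of these data known. Values in every array are given for members past the threshold, the 8 largest changes without irradiated replicate 1, the 6 widest control spreads and the brightest member of each role. From the other lists up to 5 genes past the threshold are named, or else the brightest. Per-array values of Bst2, Isg15, Ifnb1 and Xist, and the fold changes of the remaining members, were added after their values were seen. In the second induced list 38 of 43 symbols were matched. Promoters came from RefSeq (GRCm38.p6). Alternatives covered the filter, variance model, array weights, scaling, probe set rule, log transformation, replicate block, threshold, controls used and each array left out. Some results of the pathway lists are not reported here.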

Additional observations from a re-analysis of the deposited data

Results flagged for a closer look

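In 3 genes 1 control lay farther from the other 3 than Dixon's 95% critical value allows, which chance gives in about 1 of 20 groups and which was seen in 8.37% of all genes tested. Ifit1 was at 6.42 log2 in control 1, against 8.98 to 9.19 in the others, and Rsad2 at 6.96 against 9.79 to 10.08. Isg15 was at 5.97 in control 3, against 5.94 in the others, a distance of 0.024 log2 below the limit for dim genes. Its other 3 controls were equal, so Dixon's ratio was 1 at any distance and the rate of 1 in 20 does not apply.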

How the results depend on the processing

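The count of members past the threshold was 0 under every alternative run except array weights with all arrays (6) and, without irradiated replicate 1, the removal of control replicate 1 (10), so that leaving out single arrays gave 0 to 10 there. The members' median log2 fold change stayed below 0 under every alternative run, at -0.86 to -0.26 with all arrays and -0.66 to -0.18 without irradiated replicate 1. The number of genes called over the whole table moved more. With all arrays, 219 genes became 3476 with array weights, 1 with controls 2 and 3 only, 143 with no filter, 639 at an adjusted p under 0.1 and 2 to 605 with single arrays left out (20 without control replicate 2, 48 without 3 and 2 without 4; 605, 2 and 56 without irradiated replicates 1, 2 and 3). Without irradiated replicate 1, 605 became 1069 with array weights, 1 with controls 2 and 3 only, 378 with median centring, 388 with no filter, 1270 at an adjusted p under 0.1 and 1 to 1445 with single arrays left out (1445, 84, 191 and 145 without control replicates 1 to 4; 1 and 5 without irradiated replicates 2 and 3). The median control range, 2.04, was 0.72 to 2.04 with single controls left out. The cause of these changes was not tested.

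With the replicate block the gene counts were 0 with all arrays and 3 without irradiated replicate 1, with 0 members in both. Deviations from the group means correlated at 0.021, -0.055 and 0.17 in same-numbered samples. Control replicate 2 correlated best with irradiated replicate 1, at 0.12. The highest value was that of control and irradiated replicate 3, beside 0.16 for control replicate 3 and irradiated replicate 2. These values cannot decide whether the numbers pair samples, since the irradiated mean included replicate 1, which stood apart.

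Of the values for single genes under all alternatives, 579 kept their direction and their side of the threshold, 7 came past it and 41 turned sign, all of these in members that did not pass. With all arrays and array weights, Ifih1 became 0.45, Ifitm3 -0.34 and Oasl1 0.069. With controls 2 and 3 only, Ifitm3 became -0.23 and Rsad2 -0.74, and with the replicate block Ifih1 became 0.062. With single arrays left out, the log2 fold change ran from -0.70 to 0.95 for Rsad2, -0.32 to 0.77 for Ifitm3, -0.62 to 0.84 for Ifih1, -0.78 to 0.58 for Oasl1, -0.69 to 0.19 for Parp14, -0.62 to 0.18 for Stat2 and -1.23 to 0.12 for Gbp2. Without irradiated replicate 1, Parp14 became -0.023 with array weights and -0.18 with controls 2 and 3 only or the replicate block, and Oasl1 became -0.15 under the same last 2 settings. With a further array left out, Ifitm3 ran from -0.79 to 0.29, Parp14 from -0.24 to 0.44 and Stat2 from -0.025 to 0.38. Between controls that cite a record and the others, the ranges with single controls left out were -1.32 to 0.18 for Dhx58, -2.63 to 0.71 for Gbp2, -0.86 to 0.71 for Ifi44, -1.81 to 0.099 for Ifih1, -2.59 to 0.19 for Ifit1, -2.85 to 0.25 for Ifitm3, -2.42 to 0.11 for Irf7, -1.68 to 0.18 for Parp14 and -0.81 to 0.083 for Stat2.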
